A study of Mus musculus with 6 samples.

Results

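The genes described here carry out chromosome attachment, checkpoint signalling and exit from mitosis: Bub1, Bub1b, Cenpe, Cenpf, Nuf2, Dsn1, Cdca8, Nek2, Cdc20 and Ube2c. They are 10 of the 7486 genes that had a probe set of their own, and each was represented by a single probe set. The genes were chosen by name with their paired siDicer minus siScr differences already known, so levels and differences between those groups are given as a description and not as a test. RNA came from Melan-a, an immortal line of pigmented C57BL/6 mouse melanocytes grown in medium with the phorbol ester TPA. Cultures were transfected with siDicer, a small interfering RNA against the microRNA-processing enzyme Dicer, or with the control siScr, and were lysed 24 hours later. Each group held 3 mouse Clariom D arrays, from cells at passages 47, 54 and 56. The labels call these biological replicates, from 1 cell line.

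At mitosis each chromosome is held by the spindle through its kinetochore, a protein assembly built on the centromere. Unattached kinetochores keep a checkpoint signal on, which blocks the anaphase-promoting complex or cyclosome (APC/C), a ubiquitin ligase. Once the signal stops, the APC/C with its activator Cdc20 and its ubiquitin-conjugating enzyme Ube2c marks securin and cyclin B for destruction, and sister chromatids part. Transcripts of these genes accumulate in G2 and mitosis and are low in resting cells. In lysates of whole cultures, fewer cells in those phases and less RNA per cell cannot be told apart.

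All values are log2 signals per probe set, so a difference of -1 would mean a halving. Arrays had medians of 4.58 to 4.64, and RNA integrity numbers ran from 9.7 to 10. Dicer1 was not analysed here, so the groups rest on the labels. The 10 genes lay above a background gauge of 4.14, the 95th percentile of 407 olfactory and vomeronasal receptor genes, as did 59.4% of all probe sets. Of 18 listed melanocyte markers 5 were measured, and the melanin-synthesis enzyme Tyrp1 averaged 12.86 ± 0.07 in siDicer and 12.83 ± 0.10 in siScr cells (SD, n = 3 each). Levels are compared within a probe set and not between probe sets.

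All 10 genes were lower in siDicer than in siScr cells at each of the 3 passages. Over all probe sets, 22.6% were lower in all 3 pairs, and since these differences chose the genes nothing is read from the contrast between the shares. The median change over the 10 genes was -0.32, beside -0.01 over all probe sets. Mean changes ran from -0.13 for Dsn1 to -0.58 for Cenpe. The groups did not overlap for 3 of the 10, Cenpe, Cdca8 and Nek2, where 8.29% of all probe sets had every siDicer array below every siScr array.

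**Figure D1:**
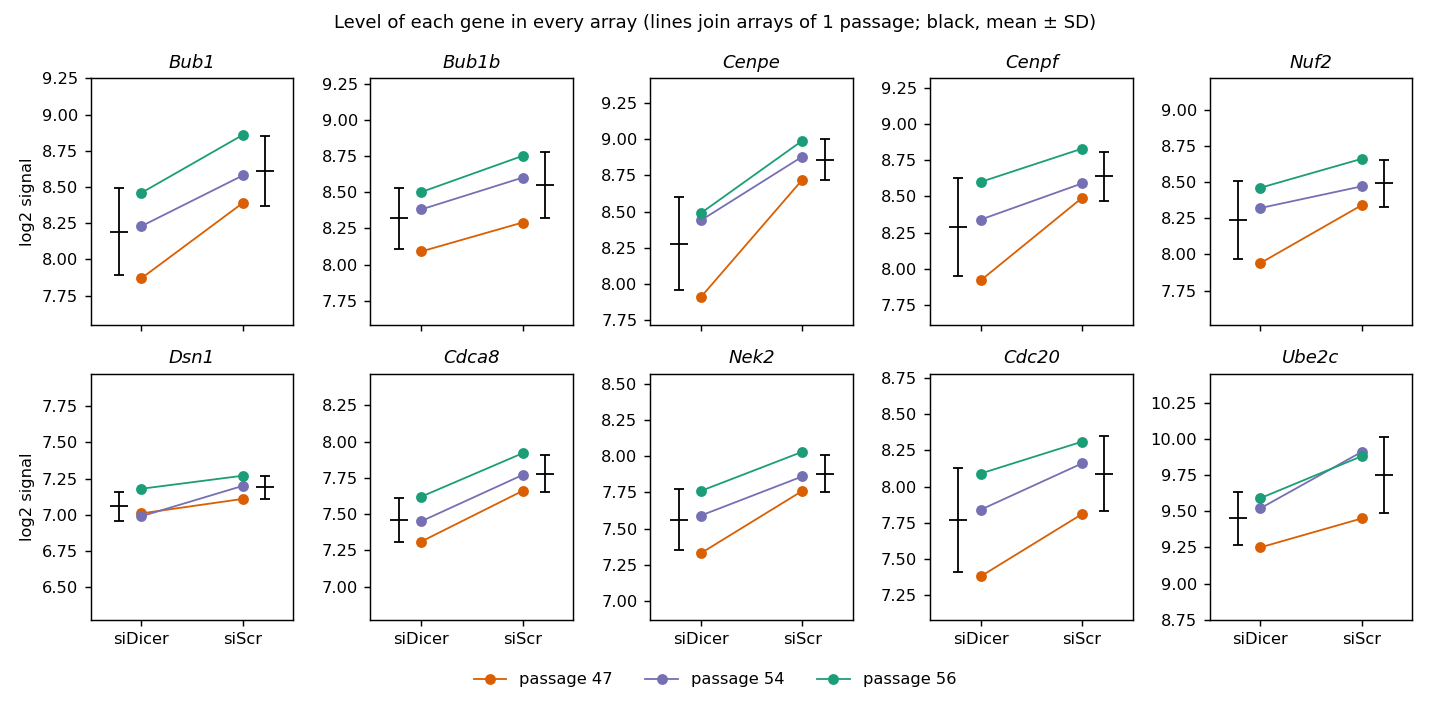
Log2 signal of each of the 10 genes in every array, siDicer left and siScr right in each panel, with a coloured line for each passage and the mean ± SD of 3 arrays in black beside each group. The y axes cover the same span of log2 units but start at different levels. Every line slopes upward from siDicer to siScr, steeply for Cenpe and least for Dsn1, and the passage 47 line lies lowest in all panels but that of Dsn1.

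Of the checkpoint kinases, Bub1 docks other checkpoint proteins at the kinetochore. It had levels of 7.87, 8.23 and 8.46 in siDicer cells at passages 47, 54 and 56, against 8.39, 8.58 and 8.86 in siScr cells. Its siDicer array was below the siScr array of the same passage each time, but the passage 56 siDicer array exceeded the passage 47 siScr array, so the groups overlapped. The mean change was -0.42, with an SD over the 3 pair differences of 0.09, which is 1.34-fold lower in siDicer cells. Bub1b encodes BubR1, a part of the complex that holds Cdc20 and inhibits the APC/C. It had 8.09, 8.38 and 8.50 in siDicer cells, against 8.29, 8.60 and 8.75 in siScr cells in the same passage order. Its pair differences were among the most alike of the 10 genes, at -0.20, -0.23 and -0.25, with a mean of -0.23.

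Of the outer kinetochore genes, Cenpe encodes the kinesin motor that carries chromosomes toward the spindle equator. Its levels were 7.91, 8.44 and 8.49 in siDicer cells at passages 47, 54 and 56, against 8.72, 8.88 and 8.99 in siScr cells. The highest siDicer array lay 0.231 below the lowest siScr array, the widest gap among the 10 genes. The mean change was -0.58 (SD of the pair differences 0.20), or 1.5-fold lower in siDicer cells, with the pair at passage 47 at -0.80. Cenpf, a large coiled-coil protein of the outer kinetochore, had 7.92, 8.34 and 8.60 in siDicer cells, against 8.49, 8.59 and 8.83 in siScr cells. Here too the pair at passage 47 differed most, by -0.57, while those at 54 and 56 differed by -0.25 and -0.23.

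Nuf2 is a subunit of the Ndc80 complex, which grips the microtubule end. It had 7.94, 8.32 and 8.46 in siDicer cells, against 8.34, 8.47 and 8.66 in siScr cells, a mean change of -0.25 (SD of the pair differences 0.13) with overlapping groups. Dsn1 belongs to the Mis12 complex, which links the Ndc80 complex to the centromere. Its levels of 7.01, 6.99 and 7.18 in siDicer cells were close to the 7.11, 7.20 and 7.27 in siScr cells. The change of -0.13 (SD of the pair differences 0.06) was 1.09-fold, the smallest of the 10 genes, and the groups overlapped.

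Cdca8 encodes Borealin, a subunit of the complex that brings the Aurora B kinase to the centromere. It had 7.31, 7.45 and 7.62 in siDicer cells, against 7.66, 7.77 and 7.92 in siScr cells at passages 47, 54 and 56. The pair differences of -0.35, -0.32 and -0.30 were nearly equal, and the groups were parted by 0.048. Nek2 is a kinase that helps to separate the centrosomes before mitosis. Its levels were 7.33, 7.59 and 7.76 in siDicer cells, against 7.76, 7.86 and 8.03 in siScr cells. The groups touched, with a gap of only 0.001 between the passage 56 siDicer array and the passage 47 siScr array, and the mean change was -0.32 (SD of the pair differences 0.09).

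On the APC/C side, Cdc20 had levels of 7.38, 7.84 and 8.09 in siDicer cells at the same passages, against 7.81, 8.16 and 8.31 in siScr cells. Its pair differences were -0.43, -0.33 and -0.22, and its spread within siDicer cells was the widest of the 10 genes, with an SD of 0.36. Ube2c had 9.25, 9.52 and 9.59 in siDicer cells, against 9.45, 9.91 and 9.88 in siScr cells. Its smallest pair difference was at passage 47, -0.20, and the largest at passage 54, -0.39. The groups overlapped for both genes, with mean changes of -0.32 for Cdc20 and -0.30 for Ube2c.

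**Figure D2:**
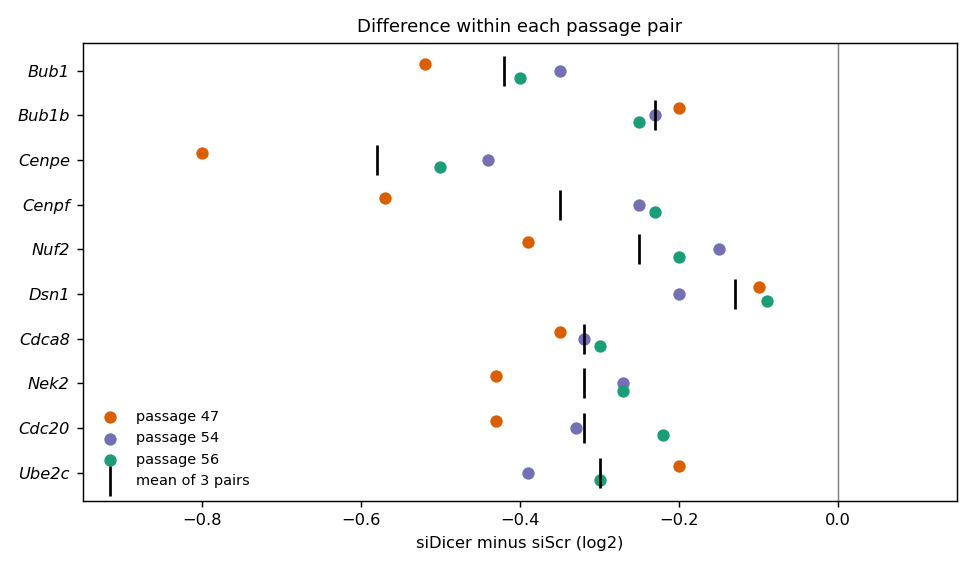
Difference in log2 signal, siDicer minus siScr, within each passage pair for the 10 genes; coloured points are the 3 pairs and the black bar is their mean. All 30 points lie left of 0, from -0.80 for Cenpe at passage 47 to -0.09 for Dsn1 at passage 56.

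The pair at passage 47 gave the largest difference for 7 of the 10 genes, and the exceptions were Bub1b, Dsn1 and Ube2c. The mean over the 10 genes was -0.40 at passage 47, -0.29 at passage 54 and -0.28 at passage 56, where the median of all probe sets was -0.02 or nearer to 0 in each pair. With 1 pair at each passage, whether the difference depends on passage was not tested. Without siDicer replicate 1, the passage 47 array, the median change over the 10 genes was -0.18 in place of -0.32, the smallest over the alternatives. The change of 7 of the 10 genes then shrank by over 1.5 times, to -0.26 for Bub1, -0.11 for Bub1b, -0.165 for Cenpf, -0.099 for Nuf2, -0.21 for Nek2, -0.13 for Cdc20 and -0.195 for Ube2c. Bub1b also moved without siScr replicate 1, to -0.35, and without siScr replicate 3, to -0.12, where Nuf2 had -0.16. Leaving out 1 array also leaves the groups unequal in passage. With both arrays of passage 47 left out and replicate as a block, the median over the 10 genes was -0.271. The same 7 genes then had -0.375 for Bub1, -0.239 for Bub1b, -0.238 for Cenpf, -0.175 for Nuf2, -0.269 for Nek2, -0.273 for Cdc20 and -0.342 for Ube2c.

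In the fit of limma, which tested all 16383 probe sets without pairing, 0 of the 10 genes passed an adjusted p of 0.05 (Benjamini-Hochberg), where 0.0671% of probe sets passed on the lower side. The unadjusted p was under 0.05 for 4 of them and for 10.2% of all probe sets. With replicate number, and so passage, as a block, 2 of the 10 passed, Bub1 and Cenpe, each with an adjusted p of 0.0449 in limma, beside 0.238% of probe sets on the lower side. With the block and quantile normalization together 0 passed, at adjusted p-values of 0.0536 for Bub1 and 0.067 for Cenpe in limma. These counts describe genes selected on this same contrast.

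The second question was how the genes varied between cultures of different passage, a comparison that is orthogonal to the siRNA contrast. The lower level of cell division genes at passage 47 was known from earlier results of these arrays, so it is no independent support. In 9 of the 10 genes the passage 47 array was the lowest of its group in both siDicer and siScr cells, beside 15.7% of all probe sets. The exception was Dsn1, with 7.01 at passage 47 and 6.99 at passage 54 in siDicer cells. In 8 of the 10 the levels stood in ascending order at passages 47, 54 and 56 in both groups, beside 3.58% of all probe sets. Dsn1 in siDicer cells and Ube2c in siScr cells departed from that order.

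The difference between passage 47 and the mean of passages 54 and 56, with siRNA as a term, had a median of -0.37 over the 10 genes and of 0.01 over all probe sets. Without siDicer replicate 1, the siDicer array of passage 47, the median over the 10 was -0.223, with Cenpe at -0.21 and Cenpf at -0.22 in place of -0.38 each. Cdc20 differed most, with -0.50 ± 0.07 (SE), averaging 7.59 at passage 47 and 8.10 at the later passages. Bub1 followed with -0.41 ± 0.06 and Cenpf with -0.38 ± 0.09, and Dsn1 had the smallest difference, -0.10 ± 0.06 (SE). For Cenpe the difference was -0.55 within siDicer cells and -0.21 within siScr cells, while for Ube2c it was -0.30 and -0.44. The passage difference was larger than the siRNA difference for 5 of the 10 genes, Bub1b, Cenpf, Nuf2, Cdc20 and Ube2c.

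In limma 0 of the 10 genes passed in this comparison of passages, with adjusted p-values from 0.0559 for Cdc20 to 0.452 for Dsn1, where 0.287% of probe sets passed on the lower side. Unadjusted, 9 of the 10 were under 0.05, as were 15.5% of all probe sets. Bub1, Bub1b, Cdc20 and Ube2c passed in limma when only brighter probe sets were tested (adjusted p from 0.0252 to 0.0485), when only those with 1 symbol were tested, or with an intensity trend in the variance. Each passage stands for 1 culture, so passage number and culture cannot be told apart, and the 2 arrays of a passage share it. The p-values of this comparison therefore do not measure the spread between cultures.

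The other genes of the pathway came from lists taken from textbook knowledge. Of 40 further kinetochore genes 10 were measured: 0 rose and 0 fell, and all 10 had a change below 0, as did 55.6% of all probe sets, with a median of -0.24. Spc25, a partner of Nuf2 in the Ndc80 complex, averaged 6.77 ± 0.22 in siDicer and 7.24 ± 0.22 in siScr cells (SD, n = 3 each), a change of -0.47 (limma, adjusted p = 0.3 without and 0.0595 with the block). Nsl1, which sits with Dsn1 in the Mis12 complex, had a change of -0.27 and Knstrn, a spindle and kinetochore protein, one of -0.28. In limma their adjusted p-values were 0.495 and 0.49 without the block, and 0.173 and 0.11 with it. At the mild end Oip5, a factor for loading the centromeric histone, had -0.07.

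The further checkpoint, Aurora B and centromere genes gave 5 measured of 21, with 0 past the threshold in either direction and a median of -0.06. Sgo2a, a protector of centromeric cohesion, had a change of -0.24 (limma, adjusted p = 0.634 without and 0.256 with the block). Mad2l2, a Mad2-related protein, had -0.06, and the kinase Nek7, a relative of Nek2, had 0.09. The remaining genes, Nek6 and Rcc2, had 0.04 and -0.06. The core checkpoint genes Mad2l1, Ttk and Bub3 were not analysed here, so the median of this list does not stand for the checkpoint.

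Of the APC/C subunits, cofactors and inhibitors 4 of 21 were measured, with 0 past the threshold and a median of 0.00. The scaffold subunit Anapc1 had levels of 9.18, 9.40 and 9.38 in siDicer cells, against 9.29, 9.49 and 9.40 in siScr cells, a change of -0.07. The cullin subunit Anapc2 averaged 8.29 ± 0.03 in both groups (SD, n = 3 each), and Cdc26 7.27 ± 0.05 in siDicer and 7.27 ± 0.02 in siScr cells. These subunits showed changes between -0.07 and 0.01. The activator Cdc20 had -0.32 and the enzyme Ube2c -0.30. Both were chosen with these differences already known, so nothing is read from the gap. Whether the subunits differ in this from Cdc20 and Ube2c was not tested.

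Among substrates of the APC/C 5 of 24 were measured, all with changes below 0 and a median of -0.34. None passed without the block, and 2 fell with it: the kinase Aurka by 0.56 (limma, adjusted p = 0.0234) and its spindle activator Tpx2 by 0.54 (limma, adjusted p = 0.0282). Cyclin A2, Ccna2, averaged 9.46 ± 0.28 in siDicer and 9.79 ± 0.15 in siScr cells (SD, n = 3 each), a change of -0.33 that did not pass. The list of other spindle and cytokinesis genes had 17 of 40 measured, 16 below 0 and a median of -0.22. From it only Fam83d, a spindle protein, passed, and only with the block, where it fell by 0.53 (limma, adjusted p = 0.0238). The spindle protein Ckap2l and the condensin subunit Ncaph had changes of -0.35 and -0.30. Their adjusted p-values in limma were 0.42 and 0.46 without the block, and 0.0658 and 0.0959 with it.

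Replication and S-phase genes, 13 measured of 30, had a median siRNA change of -0.07 and a median passage difference of -0.31. Their passage difference lay near the -0.37 of the 10 genes described here, and their siRNA change near that of all probe sets. The 10 genes were chosen on the siRNA difference, so nothing is read from comparing siRNA changes with theirs. The helicase subunit Mcm6 had a siRNA change of -0.07 and the largest passage difference of the list, -0.44. The sliding clamp Pcna had -0.06 and -0.35. Passage differences were below 0 for 12 of the 13 genes, and the exception was the transcription factor E2f2 with 0.01. Ccne2, cyclin E2, had the largest siRNA change of the list, with a value of -0.43 (limma, adjusted p = 0.272 without and 0.0433 with the block). The siRNA change was -0.32 for the origin recognition subunit Orc2 and -0.10 for E2f2, neither past the threshold. The difference between these lists was not tested. In all, 0 of the 54 measured genes of the 6 lists passed without the block, and 4 fell and 0 rose with it, where 0.238% of all probe sets passed on the lower side.

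**Figure D3:**
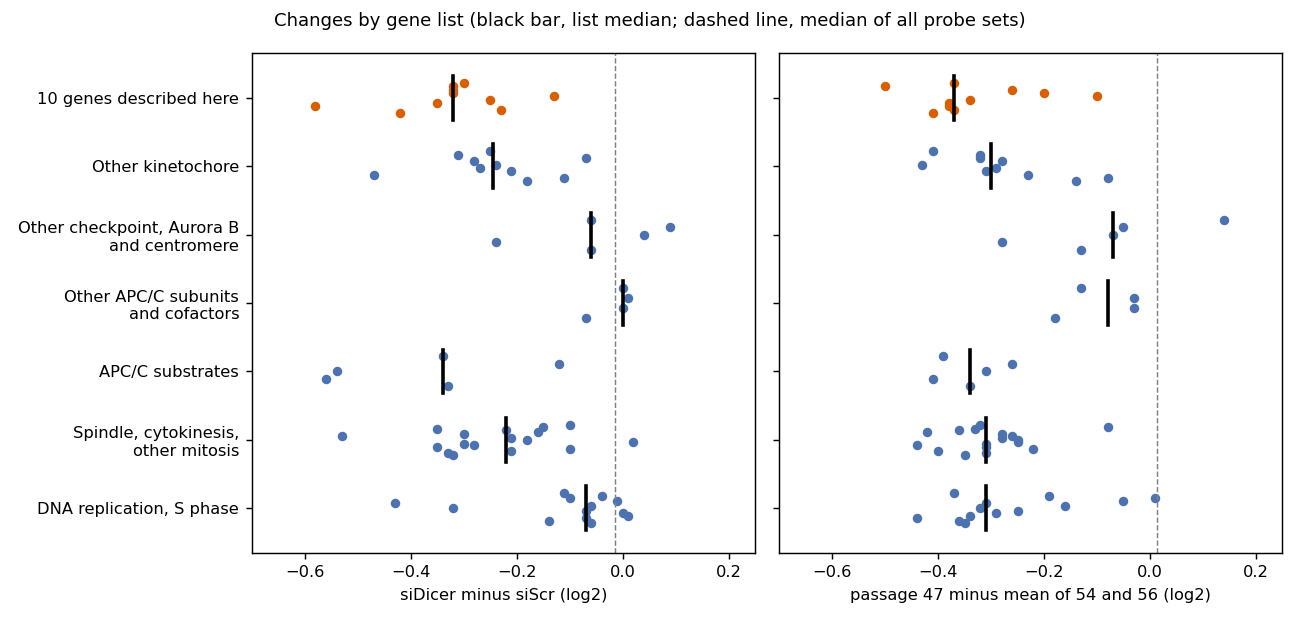
Change of each gene by list, siDicer minus siScr on the left and passage 47 minus the mean of passages 54 and 56 on the right, both in log2 units; points are genes, black bars list medians and dashed lines the medians of all probe sets. The 10 genes described here have medians of -0.32 and -0.37, the replication and S-phase genes -0.07 and -0.31, and the further APC/C subunits lie near 0 in the left panel. Since the 10 genes were chosen on the difference in the left panel, nothing is read from comparing their median there.

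Markers of other cell types had mean levels from 2.84 to 7.19. Of the immune list 6 of 14 were measured, 4 above the gauge, and their summed log2 level ran from 24.86 to 25.69 in siDicer and from 25.99 to 26.31 in siScr cells. Fcer1g, a signalling chain of Fc receptors, averaged 4.97 ± 0.05 in siDicer and 5.22 ± 0.11 in siScr cells (SD, n = 3 each). The complement genes C1qa and C1qb averaged 5.23 ± 0.20 and 4.88 ± 0.15 in siDicer cells, and 5.52 ± 0.02 and 5.08 ± 0.10 in siScr cells. These 3 were lower in all 3 pairs, as were 22.6% of all probe sets. Their changes were -0.25 for Fcer1g, -0.29 for C1qa and -0.20 for C1qb, similar in size to those of several mitotic genes. None of the 3 passed (limma, adjusted p from 0.306 to 0.495 without and from 0.176 to 0.283 with the block). Fcgr3 and Cd48, also on the immune list, had changes of -0.10 and 0.01. Ptprc, the pan-leukocyte marker, lay below the gauge at 2.84 in siDicer and 2.85 in siScr cells. Of the keratinocyte list 6 of 14 were measured, 4 above the gauge, with sums from 29.72 to 30.18 in siDicer and from 30.28 to 30.45 in siScr cells. Both sums were lower in siDicer cells, with a median change of -0.15 over the immune and -0.08 over the keratinocyte list. Any part of these lists in the lower mitotic levels was not tested. Fibroblast markers, 7 of 15 measured and 5 above the gauge, summed to 36.44 to 37.56 in siDicer and 36.42 to 37.55 in siScr cells. None of these immune, keratinocyte or fibroblast markers passed the threshold with or without the block. Among the melanocyte markers Mreg, a gene of melanosome transport, averaged 7.0 ± 0.24 in siDicer and 6.38 ± 0.06 in siScr cells (SD, n = 3 each) and passed only with the block (limma, adjusted p = 0.0877 without and 0.0435 with it).

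The genes whose profile over the 6 arrays lay nearest to the mean profile of the 10 were sought among 4843 other named genes, by the root mean square distance of log2 levels centred on each gene's mean. The 10 nearest had distances of 0.014 to 0.051, where the median candidate lay at 0.247 and a flat profile at 0.235. In order they were Kpna2, an importin, Ckap2l, Ncaph, Ccna2, Knstrn, the centriole gene Stil, the histone variant H2az1, the microtubule depolymerase Kif2c, the cytokinesis motor Kif14 and the kinase Melk. Of these, 8 were on the lists above, and H2az1 and Kpna2 were on none. Kpna2 lies on chromosome 11 in the gene table, but its probe set carries a number of chromosome 3, so this profile may belong to another locus. Among the 10 genes themselves, Nek2 lay nearest to their mean profile at 0.035, and Dsn1 and Cenpe farthest at 0.152 and 0.146. This likeness is over 6 arrays in 3 passage pairs and includes the contrast on which the genes were chosen.

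**Figure D4:**
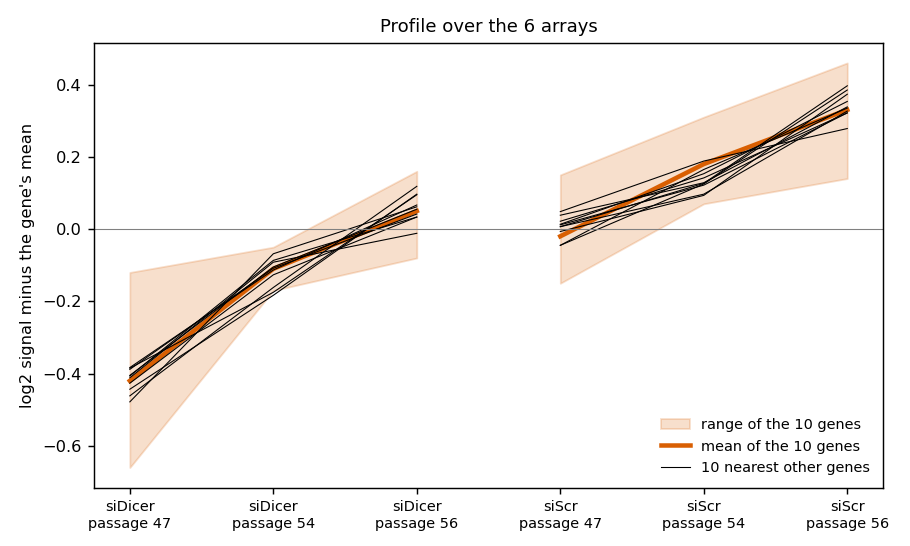
Log2 signal minus each gene's own mean over the 6 arrays, for the mean (thick line) and range (band) of the 10 genes and for their 10 nearest other genes (thin lines), with siDicer arrays left and siScr arrays right. The mean of the 10 genes runs from -0.42 in siDicer cells at passage 47 to 0.33 in siScr cells at passage 56, and the siDicer array at passage 56 (0.05) stands near the siScr array at passage 47 (-0.02).

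Promoters of genes expressed in G2 and mitosis are known for the cell cycle genes homology region (CHR), bound by the DREAM and MuvB complexes, and for CCAAT boxes, bound by NF-Y. RefSeq promoters (GRCm38.p6), from 250 bases before to 50 bases after the start, were found for all 10 genes. They were searched on both strands for the CHR form TTTGAA with its variant TTCGAA, and for CCAAT; a CHR form and a CCAAT box can share 1 end base, as they do after the start of Cdca8. Either CHR form was present in 6 of the 10 promoters, or 60%, beside 19.2% of 32851 promoters in the table. CCAAT was present in 8 of 10, or 80%, beside 37.4% of all promoters. For the kinetochore list the shares were 48.6% and 60% of 35 promoters, for the checkpoint list 38.9% and 44.4% of 18, and for the APC/C subunits 22.2% and 33.3% of 18. The APC/C substrates had 60% and 70% of 20, the spindle and cytokinesis list 76.5% and 67.6% of 34, and the replication list 20% and 72% of 25. The cell type markers are no cell cycle genes. Melanocyte markers had 25% and 58.3% of 12 promoters, and fibroblast markers 37.5% and 25% of 8. Keratinocyte markers had 22.2% and 55.6% of 9, and immune markers 20% and 10% of 10. A match is a description of letters and not a site of binding.

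The sequences below show the 120 bases before the start for 6 genes, 5′ to 3′ on the strand of the gene, with matches in capitals; a CCAAT on the opposite strand reads ATTGG and a TTTGAA there reads TTCAAA. Cdc20 (chr4:118437344-118437463, minus strand) and Ube2c (chr2:164769809-164769928, plus strand) are shown because both kinds of motif lie before the start. Cdca8 (chr4:124936918-124937037, minus strand) and Bub1 (chr2:127831860-127831979, minus strand) hold 3 and 2 CCAAT boxes there, and a CHR form past the start. Cenpe (chr3:135212443-135212562, plus strand) had the largest siDicer difference, and Dsn1 (chr2:157007076-157007195, minus strand) the smallest and no match in the whole window.
Cdc20: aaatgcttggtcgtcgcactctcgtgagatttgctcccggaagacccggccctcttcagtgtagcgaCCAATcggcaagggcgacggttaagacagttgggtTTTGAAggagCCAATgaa
Ube2c: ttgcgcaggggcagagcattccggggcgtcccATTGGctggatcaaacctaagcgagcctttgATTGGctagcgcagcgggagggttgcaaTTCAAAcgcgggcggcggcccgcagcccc
Cdca8: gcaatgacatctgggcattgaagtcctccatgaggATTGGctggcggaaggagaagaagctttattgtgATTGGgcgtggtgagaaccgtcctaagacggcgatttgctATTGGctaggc
Bub1: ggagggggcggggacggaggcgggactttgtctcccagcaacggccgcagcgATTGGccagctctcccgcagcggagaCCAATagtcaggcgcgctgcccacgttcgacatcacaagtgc
Cenpe: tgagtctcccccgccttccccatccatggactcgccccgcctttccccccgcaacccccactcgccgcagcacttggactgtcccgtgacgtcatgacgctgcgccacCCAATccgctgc
Dsn1: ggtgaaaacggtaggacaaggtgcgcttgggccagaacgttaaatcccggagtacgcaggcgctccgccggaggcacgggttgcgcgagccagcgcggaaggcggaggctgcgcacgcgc

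In Cdc20 the CHR form began 18 bases before the start, between CCAAT boxes that began 53 and 8 bases before it. In Ube2c it began 29 bases before the start on the opposite strand, and 6 CCAAT boxes lay within the window. Past the start, TTTGAA began at base 14 in Cdca8, base 3 in Cenpf and base 41 in Bub1b, and TTCGAA at base 15 in Bub1. Bub1b also held TTCGAA from 188 bases before the start. Cenpe and Nek2 held CCAAT but neither CHR form, and Nuf2 and Dsn1 held no match to any of the 3. Among the 4 genes with no CHR form in this window were both Cenpe, with a siDicer difference of -0.58, and Dsn1, with -0.13. Whether the motifs and the size of the difference are related was not tested.

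**Figure D5:**
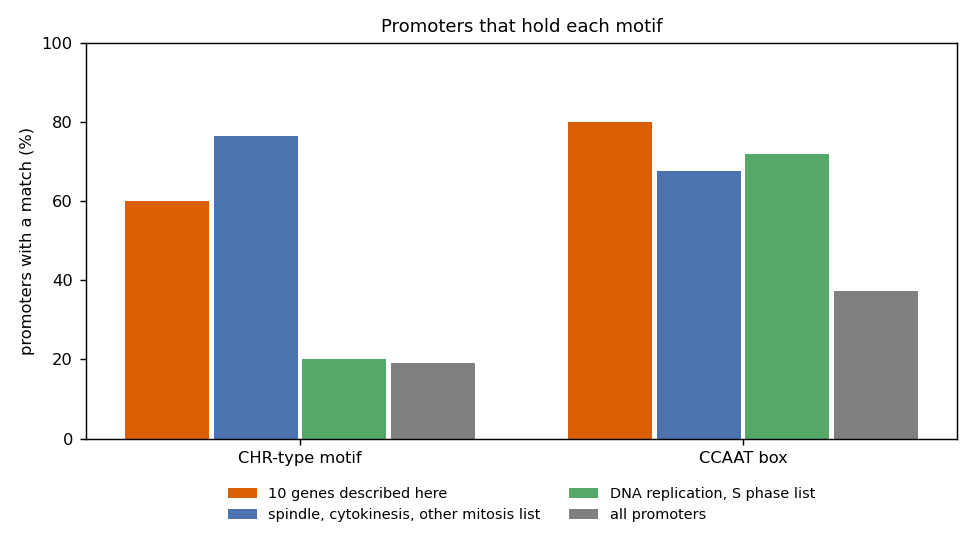
Share of promoters, in percent, that hold a CHR form (TTTGAA or its variant TTCGAA, left) or a CCAAT box (right) from 250 bases before to 50 bases after the start. Bars stand for the 10 genes described here, the spindle and cytokinesis list, the replication list and all 32851 promoters; a CHR form is found in 60% of the 10 genes against 19.2% of all promoters.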

How the data were processed

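The authors deposited 1 log2 signal for each probe set and array. The submitters' processing notes name Affymetrix Expression Console, with version, background correction and normalization not given in the sources used here. All 16383 probe sets were used unfiltered. Symbols came from the platform annotation, with repeats of 1 symbol counted once: 7530 probe sets had 1 symbol, 455 several and 8398 none, and 230 symbols were updated by Entrez number. Chromosomes 1 to 4 held 7439 of those with 1 symbol, so most pathway genes were not analysed here. The probe set of highest mean stood for a gene.

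Tests used lmFit and eBayes of limma 3.58.1 under R 4.3.3 (Benjamini-Hochberg over all probe sets, threshold 0.05), siDicer minus siScr without a block, and passage 47 minus the mean of 54 and 56 with siRNA as a term. Same-numbered arrays share a passage per the labels, and their deviations correlated with r of 0.44, 0.41 and 0.24, so the numbers pair the arrays and blocked values are given where they change a call. Without the block, p-values measure the spread between the arrays of a group. In the blocked fit they measure the spread of the siRNA difference between the 3 passage pairs. In the passage fit they measure the spread left after the passage and siRNA terms, and not that between cultures. The number of arrays limits the precision. The fits were tested on simulated data in which the noise was independent between arrays, with no pairing by passage. That test does not show how the fit without the block behaves in paired arrays such as these. The genes and lists were chosen with earlier results of these data known. By the naming rule the text names all 10 genes and the 10 nearest profiles. In each pathway list it names the 3 smallest p-values and any call (at most 6). Oip5, Mcm6, Pcna, Nek6, Rcc2 and the cell type markers were named after their values were seen. Alternatives changed the scaling, filter, variance, probe set rule and arrays.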

Additional observations from a re-analysis of the deposited data

How the results depend on the processing

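Every one of the 10 genes kept a negative siDicer minus siScr change in all 18 alternatives and a negative passage difference in all 12. Where the scaling and arrays were unchanged, the alternatives could not alter these values. The replicate block, level and symbol filters, mean of all rows and intensity trend left the siRNA median at -0.322. The filters, the trend and the fit with no siRNA term left the passage median at -0.368. Their kept signs are therefore no test, and the genes were chosen on the siRNA difference. The median change ran from -0.411 to -0.18 for siRNA and from -0.395 to -0.223 for passage, the smallest of each without siDicer replicate 1. With the replicate block 163 probe sets passed against 35 without it, with 2 of the 10 genes and 4 pathway list genes against 0 and 0. Block combinations with another scaling were chosen after seeing the data: with quantile normalization 84 probe sets, 0 of the 10 and 3 list genes passed, and with median centring 191, 2 and 5. Testing fewer probe sets gave 59 (level above the median), 69 (1 gene symbol) and 71 (mean of all rows of a gene). Leaving out 1 array, or a pair with the block, gave 0 to 157 probe sets, 0 to 1 of the 10 genes and 0 to 3 list genes. The counts were 0 without siDicer replicate 1 or 3 or siScr replicate 3, 4 without siDicer replicate 2, 7 without siScr replicate 1 and 20 without siScr replicate 2. With the block, Cenpe passed without pair 1 (adjusted p = 0.0441 in limma), and neither Bub1 nor Cenpe without pair 2 or 3.

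For passage, 56 probe sets passed, against 153 with a level above the median, 142 with 1 gene symbol, 125 with an intensity trend and 30 with no siRNA term. Of the 10 genes 4 passed in the first 3 of these, and 1, Cdc20, after median centring. Leaving out 1 array gave 30 to 54 probe sets and 0 of the 10 genes, with 35 without siDicer replicate 2 and 30 without siScr replicate 2. Where fewer probe sets or arrays do not account for it, the cause was not tested. All 54 measured list genes and the 10 genes lay above the background gauge of 4.14.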
